A study of Mus musculus with 2 samples.

Results

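The cytochrome P450 genes of families 1 to 4 were described in adrenal gland RNA of 2 mice. Both were adult females of the B6CASTF1/J strain, 8 to 10 months old, and total RNA was sequenced. Members were the genes with a symbol made of Cyp, a family number of 1 to 4, a subfamily letter and a number, and with at least 1 protein-coding transcript. The rule found 75 of the 55536 genes in the gene tables, and 21 further P450 genes belong to other families. B6CASTF1/J mice carry 1 genome from C57BL/6J and 1 from the CAST strain, and neither animal had a stated treatment. Both animals form 1 group, so the data give levels in this gland and the difference between a pair of like animals, with 1 library on each side and therefore no p-value. Animal number 3 gave replicate 2, and animal number 1 gave replicate 1. The labels give them separate animal numbers but 1 donor code, so they were taken as separate animals on the strength of the numbers. The expected counts of a library summed to 34319787 in replicate 2 and 40453707 in replicate 1.

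P450 enzymes are heme proteins that insert an oxygen atom into small molecules. Families 1 to 3 oxidise many drugs, pollutants and plant compounds, and family 4 hydroxylates fatty acids and eicosanoids. Most of these enzymes sit in the endoplasmic reticulum, take electrons from the reductase encoded by Por, and are best known from the liver. The adrenal cortex uses P450 enzymes of other families to build steroid hormones. In mouse the gene families have expanded into clusters of near-identical copies on a few chromosomes.

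The loop that holds the heme iron is the part these genes share most clearly, and the coding bases for it are shown for the 6 members at 10 TPM or more in both animals (TPM is a relative level within a library, corrected for transcript length). Each is a 30-base stretch of the GENCODE M21 coding sequence, 5′ to 3′, with the codon of the iron-binding cysteine in capitals. The loop begins at coding base 1285 in Cyp2f2, 1288 in Cyp2e1, 1378 in Cyp4f13, 1315 in Cyp2d22, 1336 in Cyp4b1 and 1387 in Cyp1b1.
Cyp2f2: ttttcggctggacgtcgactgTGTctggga
Cyp2e1: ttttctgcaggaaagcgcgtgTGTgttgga
Cyp4f13: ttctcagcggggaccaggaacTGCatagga
Cyp2d22: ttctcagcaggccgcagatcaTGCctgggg
Cyp4b1: ttttctgcagggcccaggaatTGCattggg
Cyp1b1: ttctcagtgggcaaacggaggTGCatcggt
A search pattern for this loop was found in 72 of the 75 members. A member that did not match it, such as Cyp2s1, was not shown to lack the loop. The codon was TGT in Cyp2f2 and Cyp2e1 and TGC in the other 4 genes shown.

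Markers of the labelled tissue were high, and the members were a small part of its P450 RNA. Cyp21a1, the steroid 21-hydroxylase gene, stood at 6396 TPM in replicate 2, against 6280 TPM in replicate 1, and all 6 cortex markers passed 1 TPM. The members summed to 416 TPM in replicate 2 and 320 TPM in replicate 1, against 13082 and 12046 TPM for the P450 genes of other families. They thus held 3.08% of P450 TPM in replicate 2 and 2.59% in replicate 1, a mean of 2.83% ± 0.346 (SD, n = 2). Of all nuclear protein-coding TPM they held 0.116% in replicate 2 and 0.0905% in replicate 1.

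Fewer members than protein-coding genes in general, as a share, were detected. Counting 3 or more expected counts in both animals as detected, 35 of 75 members were detected, where 69.8% of the 21901 protein-coding genes were. A further 9 reached 3 counts in replicate 2 alone and 4 in replicate 1 alone, 27 stayed under 3 in both, and 16 of those had 0 in both. A count of 3 corresponded to 0.0874 CPM in replicate 2 and 0.0742 in replicate 1, so a level below that was not detectable at this depth. Just inside the limit were Cyp2c70, with 8 counts in replicate 2 and 3 in replicate 1, and Cyp2j5, with 9 and 3. Just outside it were Cyp2d10, with 14.8 counts in replicate 2 and 2 in replicate 1, and Cyp2d11, with 3.18 and 2. In the index-based table Cyp2d11 had 9.39 counts in replicate 2 and 21.9 in replicate 1, which puts it inside the limit and turns its log2 ratio to -1.07 from 0.68. At 1 TPM or more in both animals there were 15 members, where 54.7% of protein-coding genes reached that level. Of the 48 members of family 2, 6 reached it, as did 8 of 17 in family 4, 1 of 3 in family 1 and none of 7 in family 3.

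Levels were uneven, with 3 genes holding most of the total. Cyp2f2, Cyp2e1 and Cyp4f13 together made up 78.5% of the members' TPM in replicate 2 and 74.2% in replicate 1, a mean of 76.3% ± 3.02 (SD, n = 2). Cyp2f2 alone made up 58.4% in replicate 2 and 38.9% in replicate 1.

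**Figure D1:**
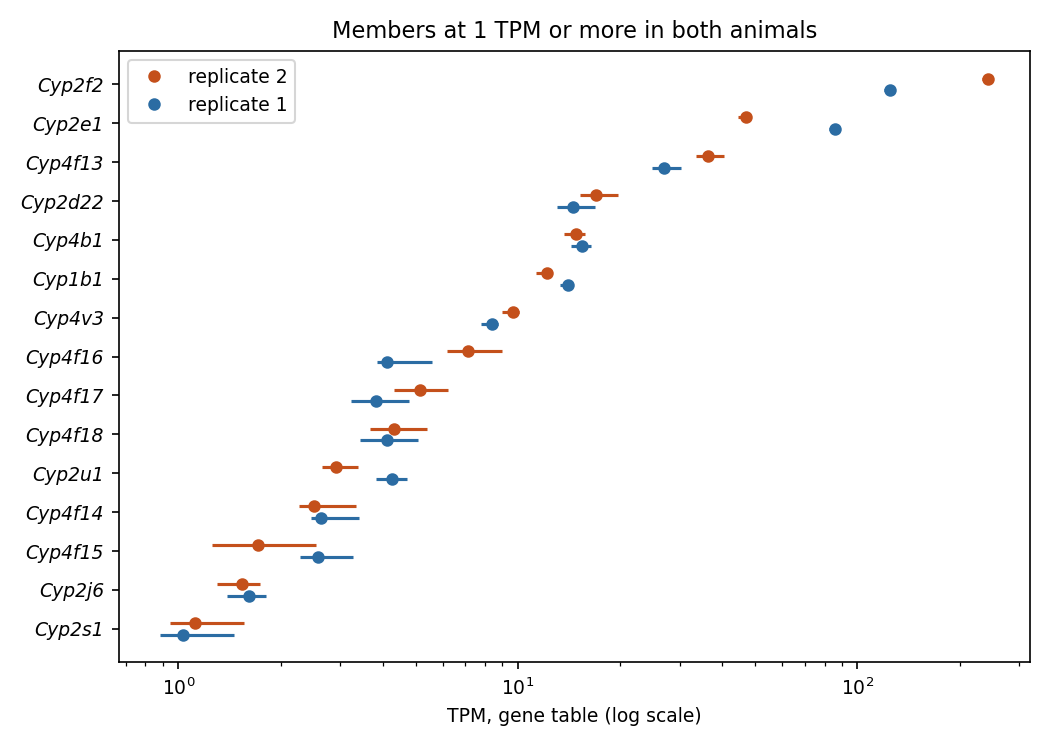
TPM of the 15 members at 1 TPM or more in both animals, on a log axis, with replicate 2 above replicate 1 for each gene; lines are the deposited bounds of estimation within 1 library. Cyp2f2 lies at 243 TPM in replicate 2, against 125 TPM in replicate 1, and Cyp2e1 is the gene next in mean level, with the higher value in replicate 1.

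Family 2 held the highest member, and its leading pair differed between the animals in opposite directions. Cyp2f2 encodes the enzyme that activates naphthalene in mouse lung, and its gene lies on chromosome 7 at 27119909 to 27133660 of mm10. It had 243 TPM in replicate 2 and 125 TPM in replicate 1, a mean of 184 ± 83.5 TPM (SD, n = 2), and was 1.81-fold higher in replicate 2 (log2 ratio 0.86). Cyp2e1 encodes the P450 that oxidises ethanol and small organic solvents, and lies on chromosome 7 at 140763739 to 140774987. Its level was 47.0 TPM in replicate 2 and 85.9 TPM in replicate 1, a mean of 66.5 ± 27.5 TPM (SD, n = 2), with a log2 ratio of -0.95. The deposited TPM intervals of the animals did not overlap for either gene. The ratio of Cyp2f2 to Cyp2e1 was therefore 5.16 in replicate 2 and 1.45 in replicate 1.

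These differences were large for genes of such counts. Between 10000 and 20000 mean counts, the middle 90% of 214 protein-coding genes had log2 ratios from -0.49 to 0.20, and Cyp2f2 lay above that range. Between 2000 and 5000 mean counts the range was -0.38 to 0.25 over 2328 genes, and Cyp2e1 lay below it. Marker lists of several cell types also differed between the libraries, while others differed less. The median log2 ratio was -0.02 for adrenal cortex, -0.0009 for macrophage and leukocyte, -0.13 for endothelial and -0.16 for chromaffin markers. The 8 adipocyte markers summed to 789 TPM in replicate 2 and 1542 TPM in replicate 1, and all 8 had ratios below 0, with a median log2 ratio of -1.04. Cfd and Fabp4, the highest of them, had 254 and 221 TPM in replicate 2 and 488 and 435 TPM in replicate 1. The 6 smooth muscle and pericyte markers were all below 0, with a median log2 ratio of -0.72. The 4 Schwann markers had a median of -1.07, with 3 below 0, and 7 of 8 capsule and fibroblast markers were below 0, with a median of -0.48. The 8 hepatocyte markers summed to 28.8 TPM in replicate 2 and 9.68 TPM in replicate 1, and all 8 had ratios above 0, with a median of 1.46. Alb had 18.7 TPM in replicate 2 and 5.56 TPM in replicate 1, and Ahsg had 4.28 and 2.09 TPM. Alb and Ahsg were below Cyp2f2 and Cyp2e1 in TPM in each library, which does not tell which cells the Cyp2f2 and Cyp2e1 RNA came from. The part of these markers in the Cyp2f2 and Cyp2e1 ratios was not tested, and in bulk RNA fewer cells of a type and less RNA per cell cannot be told apart.

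The remaining family 2 genes at 1 TPM or more were lower. Cyp2d22, a drug-oxidising gene often set beside the main human CYP2D enzyme, had 17.0 TPM in replicate 2 and 14.6 TPM in replicate 1, and its intervals overlapped. Cyp2u1, a fatty acid hydroxylase gene, had 2.91 TPM in replicate 2 and 4.27 TPM in replicate 1, a log2 ratio of -0.49, with intervals apart. Cyp2j6, of a subfamily that makes epoxides from arachidonic acid, had 1.54 TPM in replicate 2 and 1.61 TPM in replicate 1. Cyp2s1, a dioxin-inducible gene, had 1.12 TPM in replicate 2 and 1.03 TPM in replicate 1. The last pair of genes thus differed little between animals. Cyp2r1, the vitamin D hydroxylase gene, was below 1 TPM, with 26 counts in replicate 2 and 38 in replicate 1.

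Family 1 was represented by Cyp1b1 almost alone. This gene, whose enzyme oxidises polycyclic hydrocarbons and estradiol, had 12.2 TPM in replicate 2 and 14.1 TPM in replicate 1, a mean of 13.1 ± 1.34 TPM (SD, n = 2). Its log2 ratio was -0.25. Cyp1a2, a drug- and amine-oxidising gene of liver, had 6 counts in replicate 2 and 4 in replicate 1. Cyp1a1, the classic target of the aryl hydrocarbon receptor, had 0 counts in replicate 2 and 1 in replicate 1. Among genes of the same pathway, Ahr itself had 1.08 TPM in replicate 2 and 1.29 TPM in replicate 1. Of 7 other response genes listed, 4 reached 1 TPM, where 54.7% of protein-coding genes did. None was called different by the rule given with the ratios, where 0.353% of genes were called higher and 0.723% lower. The highest was Slc7a5 at 20.04 TPM in replicate 2, against 18.8 TPM in replicate 1.

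No member of family 3, which oxidises a large share of drugs in liver, reached 1 TPM in both animals. Its highest member was Cyp3a25, with 17.6 counts in replicate 2 and 13 in replicate 1. Cyp3a41a, a family 3 gene that the rule leaves out, had more, with 60.8 and 14.6 counts. Cyp3a13, the family 3 gene of gut and other tissues, had 6 counts in replicate 2 and 10 in replicate 1. Cyp3a11, the main drug-induced gene of mouse liver, had 0 counts in replicate 2 and 4.37 in replicate 1. Of the receptors that induce it, Nr1i2 had 1 count in replicate 2 and 0 in replicate 1. Nr1i3 had 8 and 6, above the limit of 3 counts in both animals.

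Family 4 was led by the Cyp4f genes, which hydroxylate leukotrienes and fatty acids and lie mostly in a cluster on chromosome 17. The subfamily summed to 57.3 TPM in replicate 2 and 44.3 TPM in replicate 1, and 6 of its 9 genes passed 1 TPM. Cyp4f13 had 36.3 TPM in replicate 2 and 27.0 TPM in replicate 1, with intervals apart, while its scaled counts gave a log2 ratio of only 0.13. Cyp4f16 had 7.14 TPM in replicate 2 and 4.12 TPM in replicate 1, and here too the log2 ratio of counts was smaller, at 0.19. Cyp4f17 stood at 5.14 TPM in replicate 2, against 3.83 TPM in replicate 1.

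The other Cyp4f genes were closer to the limit of 1 TPM. Cyp4f18, a leukotriene hydroxylase gene of leukocytes, had 4.31 TPM in replicate 2 and 4.11 TPM in replicate 1. Cyp4f14 had 2.51 TPM in replicate 2 and 2.63 TPM in replicate 1. Cyp4f15 had 1.72 TPM in replicate 2 and 2.57 TPM in replicate 1, with overlapping intervals. Its counts were 86 in replicate 2 and 189 in replicate 1, a log2 ratio of -0.99, just short of a 2-fold difference. In deposited TPM the log2 ratio was smaller in size, at -0.58. Cyp4f18 and Cyp4f14 thus had near-equal TPM in the animals.

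Outside that cluster, Cyp4b1, whose enzyme hydroxylates medium-chain fatty acids and activates a lung toxin, had 14.8 TPM in replicate 2 and 15.5 TPM in replicate 1. Cyp4v3, the mouse counterpart of a human gene mutated in a retinal dystrophy, had 9.70 TPM in replicate 2 and 8.40 TPM in replicate 1. Neither differed by more than 1.1-fold after scaling. Cyp4a14, a fatty acid hydroxylase gene that peroxisome proliferators induce in liver, had 5 counts in replicate 2 and 0 in replicate 1.

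By the rule for a difference between the animals (a log2 ratio of 1 or more either way, a mean of 100 or more expected counts, and TPM intervals apart), no member was called out of 15 that reached the count. Over 11888 protein-coding genes, 0.353% were higher in replicate 2 and 0.723% lower, so a count of 0 among 15 is near the background. No p-value was computed, and no other count-based test was run. At a mean of 10 or more counts, 2 of 29 members were higher in replicate 2, against 1.01% of 14587 genes, and none was lower, against 0.953%. Both passed the count limit through replicate 2 alone, where they are high, so the count of 2 is a description and supports no difference of the members from other genes. The 2 were Cyp4a10, with 26 counts in replicate 2 and 7 in replicate 1, and Cyp3a44, with 20.1 and 0; both are named for their values. With the limit of 3 counts put in place of 0 in replicate 1, Cyp3a44 was 7.39-fold higher in replicate 2. That value leaves out the counting error of replicate 2. In the index-based table Cyp3a44 had 16.4 counts in replicate 2 and 2 in replicate 1, a log2 ratio of 2.86.

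Ratios of members with few reads are given as a description. Among the 14 members between 10 and 100 mean counts, 10 had ratios above 0 and the median log2 ratio was 0.97, where 2699 protein-coding genes of that range had a median of 0.06 and 53.7% above 0. Of these 14 members, 5 had 10 or more counts in replicate 2 alone and none in replicate 1 alone, so they entered through the library where they are high and the median is in part set by that. The 15 members at 100 or more had a median of 0.00, against -0.03 over 11888 genes. Over all 29 members the median was 0.12, against -0.03 over 14587 genes, and 18 were above 0. With Cyp3a44 placed at its bound, these medians were the same. The hepatocyte markers, whose ratios were also above 0, are given with Cyp2f2. The 7 kidney tubule markers summed to 0.58 TPM in replicate 2 and 0.52 TPM in replicate 1. Of these, 2 were detected in both animals: Aqp2, with 19 counts in replicate 2 and 23 in replicate 1, and Lrp2, with 24 and 42. Another 4, Slc34a1, Umod, Slc12a1 and Kap, had 0 counts in both. The part of hepatocyte RNA in the low-count members was not tested.

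**Figure D2:**
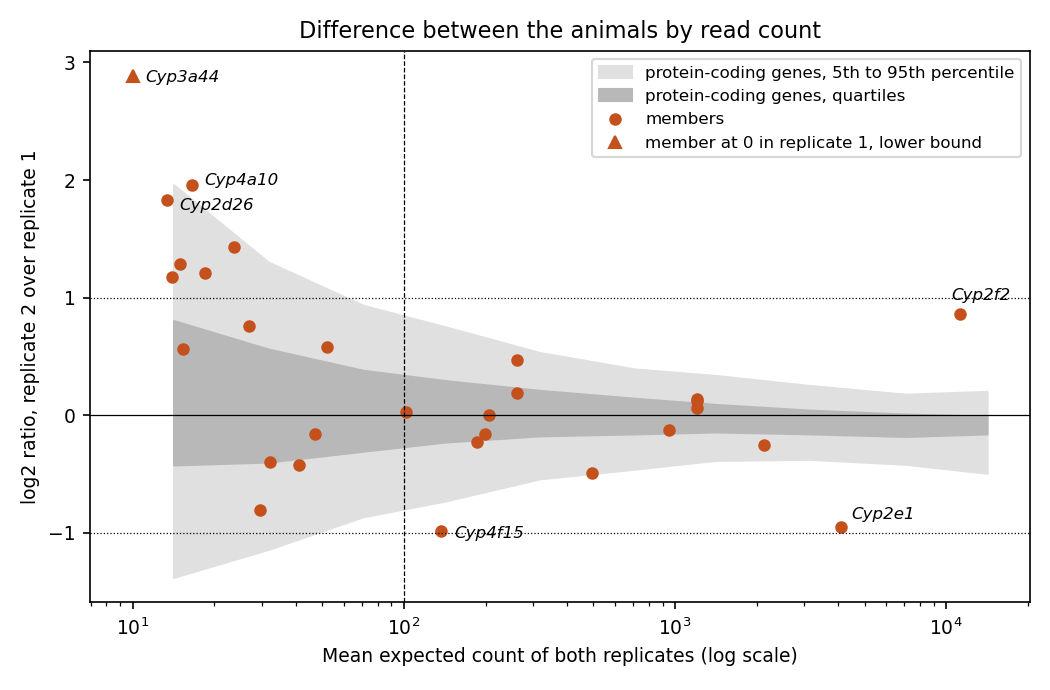
Log2 ratio of replicate 2 over replicate 1 against mean expected count (log axis) for the 29 members at a mean of 10 or more, with the quartiles and the middle 90% of protein-coding genes in grey bands; dotted lines mark a 2-fold difference and the dashed line a mean count of 100. Most members under 100 counts lie above 0, while Cyp2f2 and Cyp2e1 lie on opposite sides of the grey bands. The triangle, marked as a lower bound, is Cyp3a44 with the limit of 3 counts in place of 0 in replicate 1. It leaves out the counting error of replicate 2.

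Sums over the members of a subfamily include each of them whatever its count, and so need no count limit. They are made in part of the same low-count members and are no separate evidence. The 5 Cyp4a genes had 35 counts in replicate 2 and 10 in replicate 1, a 3.73-fold ratio after scaling. The 7 Cyp3a members had 54.1 counts in replicate 2 and 28.4 in replicate 1, a 2.09-fold ratio. Cyp3a41a, which the rule leaves out, had 60.8 and 14.6 counts, so this ratio is not that of the whole subfamily. The 4 Cyp2a genes had 128 counts in replicate 2 and 78.5 in replicate 1, and the 15 Cyp2c genes had 144 and 103, for ratios of 1.80 and 1.54. Single genes weigh heavily in 2 of these sums: Cyp4a10 gave 26 and 7 of the Cyp4a counts, and Cyp3a44 gave 20.1 and 0 of the Cyp3a counts. In these 4 subfamilies the 95% counting interval of the log2 ratio stayed above 0. The ratio itself stayed above 0 with each other scaling and with the index-based table, where the log2 ratio of Cyp3a fell to 0.72 from 1.06. The 5 Cyp2b genes went the other way, with 27 counts in replicate 2 and 49 in replicate 1, a ratio of 0.613. The Cyp2j sum had a log2 ratio of -0.09, which turned to 0.00 with scaling to total counts and to 0.05 in deposited TPM. These intervals cover counting error only and not the spread between animals. The range of single protein-coding genes described with Cyp2f2 was -1.14 to 1.30 between 20 and 50 mean counts. Of the sums at that count, Cyp3a (log2 ratio 1.06) and Cyp2b (-0.71) lay inside it and Cyp4a (1.90) above. Between 100 and 200 mean counts it was -0.73 to 0.75, with Cyp2c (0.63) inside and Cyp2a (0.85) above. No share of genes with intervals clear of 0 is given for comparison.

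**Figure D3:**
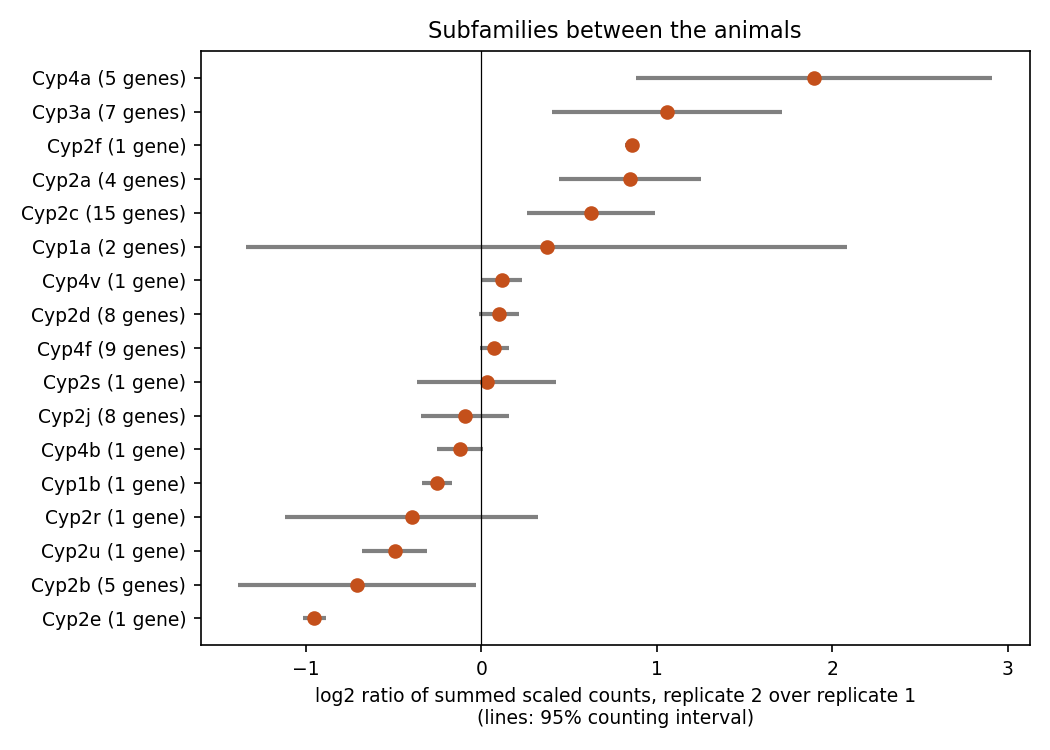
Log2 ratio of the summed scaled counts of each subfamily's members, replicate 2 over replicate 1, with the number of members beside each name. Lines are 95% counting intervals, which cover counting error only. The whole interval lies to the right of 0 for Cyp4a, Cyp3a, Cyp2f, Cyp2a, Cyp2c and, barely, Cyp4v. It lies to the left for Cyp2e, Cyp2b, Cyp2u and Cyp1b, and the other intervals span 0. Among the subfamilies clear of 0, Cyp3a, Cyp2c, Cyp4v, Cyp2b, Cyp2u and Cyp1b stay inside the range of single protein-coding genes of like mean count. That range is described with Cyp2f2, and Cyp4a, Cyp2f, Cyp2a and Cyp2e lie outside it.

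Near-identical copies limited what single low members can show. Reads were treated as windows of 101 bases, the length that the gap of 100 bases between length and effective length implies, and 32 of 75 members shared no such window with another annotated gene, among them 9 of the 15 at 1 TPM or more. The highest share at that level was 5.84%, in Cyp4f16, and Cyp2f2, Cyp4f13 and Cyp1b1 shared none. Only exact matches between GENCODE M21 sequences counted as shared, and sequence of the CAST genome, which both animals carry, was not used. A share of 10% or more was found in 10 members, none of them at 1 TPM, up to 35.1% in Cyp2c69, whose main partner was Cyp2c40. The closest coding pair was Cyp2a5 and Cyp2a4, with 23 differences over 1482 bases and 98.4% identity, and it is shown because the counts of both depend on such bases. Below are coding bases 596 to 655, where 4 differences, in capitals, fall.
Cyp2a5: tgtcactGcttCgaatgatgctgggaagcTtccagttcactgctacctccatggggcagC
Cyp2a4: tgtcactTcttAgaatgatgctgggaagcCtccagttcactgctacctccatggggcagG
Cyp2a5 had 33.7 counts in replicate 2 and 13.5 in replicate 1, and Cyp2a4 had 32.5 and 21.04. By contrast the nearest member to Cyp2f2 was Cyp2g1 at 63.1% identity, and the nearest to Cyp1b1 was Cyp1a2 at 55.6%. Other abundant members have closer relatives: Cyp4f13 was 84.3% identical to Cyp4f17, Cyp2d22 was 79.4% identical to Cyp2d11, and Cyp4f16 was 92.3% identical to Cyp4f37.

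Levels in the index-based transcript tables were compared with those of the gene tables. Of the 15 members at 1 TPM or more in either table, none was 2-fold apart between the tables in both animals, where 1.07% of 12101 protein-coding genes were. All 15 were lower in the index-based table, with a median ratio of 0.852, and the median over all 12101 genes was 0.874. The widest gap was in Cyp4f18, with 3.07 TPM in replicate 2 and 2.58 TPM in replicate 1 in the index-based table, a ratio of 0.676 to the gene table over both animals. The mean TPM of 10 of 23 named genes moved by more than the SD between the animals, among them Cyp2d22, Cyp4b1, Cyp1b1 and Cyp4v3, at 13.9, 12.9, 10.1 and 7.19 TPM in the index-based table.

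The same transcript was the highest in both animals and both tables for 10 of 13 members at 1 TPM with several annotated transcripts, where the share of protein-coding genes was 70.3%. The exceptions were Cyp4f16, Cyp4f17 and Cyp4f15. A single coding transcript held 97.4% of Cyp2f2 in replicate 2 and 98.8% in replicate 1. Cyp4f13 was mixed. Transcripts with a retained intron, which carry unspliced sequence, held 48.8% of its TPM in replicate 2 and 32.1% in replicate 1, with 48.6% and 31.1% in the index-based table. Its coding transcripts stood at 13.8 TPM in replicate 2, against 14.3 TPM in replicate 1, so the gap in Cyp4f13 TPM lay in the retained-intron class, at 17.7 TPM in replicate 2, against 8.66 TPM in replicate 1. Cyp2d22 had 35.8% retained-intron TPM in replicate 2 and 21.5% in replicate 1, with 39.7% and 30.04% in the index-based table. A Cyp2d22 transcript of 375 bases gave 21.48% in replicate 2 and 10.57% in replicate 1, from 33.15 and 16.45 counts. A Cyp4f13 transcript of 424 bases gave 23.01% and 16.15%, from 89.51 and 54.9 counts. Short transcripts weigh more in TPM than in counts, so these shares rest in part on few reads. In Cyp4f16 the tables differed, with 60.6% in replicate 2 and 26.8% in replicate 1 from the alignment and 38.9% and 39.2% from the index.

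**Figure D4:**
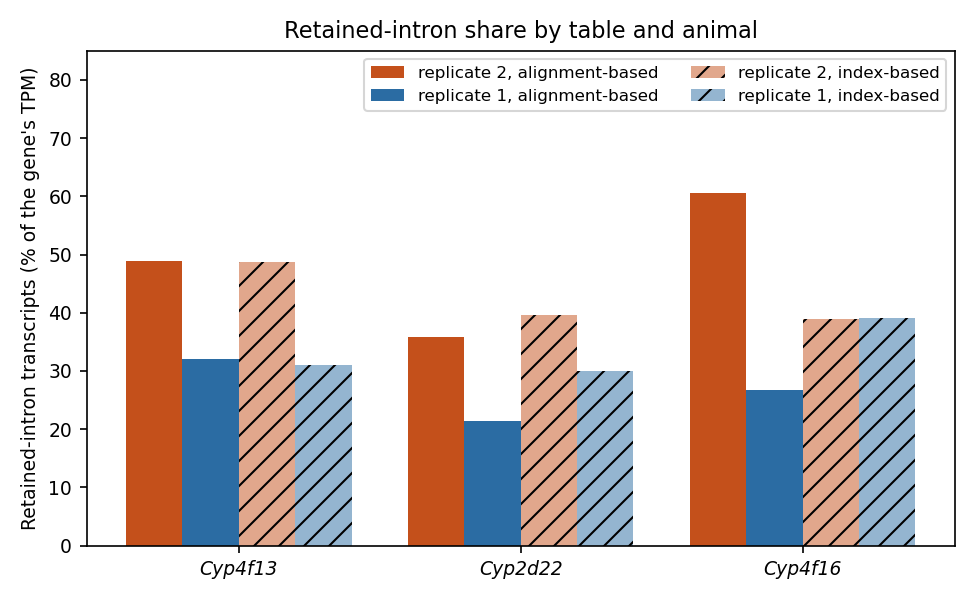
Percent of each gene's TPM held by retained-intron transcripts, in replicate 2 and replicate 1, from the alignment-based tables (solid) and the index-based tables (hatched). The bars for replicate 2 are the higher in both tables for Cyp4f13 and Cyp2d22, while for Cyp4f16 the index-based bars are level. Short transcripts with few reads weigh more in these shares than in counts.

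The partners of these enzymes were abundant. All 8 electron-donor genes found passed 1 TPM, where 54.7% of protein-coding genes did. None was 2-fold apart, where 0.353% of genes were called higher and 0.723% lower. Por, the reductase of microsomal P450 enzymes, had 100.05 TPM in replicate 2 and 105 TPM in replicate 1, above every member except Cyp2f2. The mitochondrial donors, which serve steroid P450 enzymes, were higher still, and Fdxr had 643 TPM in replicate 2 against 524 TPM in replicate 1, while Fdx1 had 492 and 595 TPM. Cyb5b, a cytochrome b5 gene, had 229 TPM in replicate 2 and 256 TPM in replicate 1.

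Among 20 genes for sensors of foreign compounds and lipids, 15 passed 1 TPM in both animals, where 54.7% of protein-coding genes did. Nfe2l2, the oxidant response factor, had 37.8 TPM in replicate 2 and 39.1 TPM in replicate 1. Nr1h2, an oxysterol receptor, had 39.2 TPM in replicate 2 and 32.5 TPM in replicate 1. Pparg, a fat cell regulator, was the 1 sensor past the rule at 100 counts, with 6.32 TPM in replicate 2 and 12.5 TPM in replicate 1. Of 9 epoxide and eicosanoid genes, 5 passed 1 TPM, which is near the share of protein-coding genes. Ephx1, the microsomal epoxide hydrolase gene, had 141 TPM in replicate 2 and 112 TPM in replicate 1. Ephx2, the soluble hydrolase, was called lower, with 8.87 TPM in replicate 2 and 20.3 TPM in replicate 1. Ptges, a prostaglandin E synthase gene, followed at 6.96 TPM in replicate 2, against 7.50 TPM in replicate 1. Both genes that were called lower, Pparg and Ephx2, had the same direction as the adipocyte markers given with Cyp2e1, whose part in them was not tested. Over all protein-coding genes at 100 counts, 0.723% were called lower.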

How the data were processed

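Total RNA was sequenced from 2 adrenal glands, with 300 ng of RNA per library, ERCC spike-ins and a directional kit, per the labels; the assembly is mm10, per the labels. The programs and any use of strand in counting were not given in the sources used here; overlapping antisense genes are uncertain. The gene and transcript tables hold expected counts, which are estimates that were deposited without normalization. TPM and FPKM were scaled by the authors for effective length and depth, per the file headers. The percent of a gene held by each transcript is a deposited column. The index-based tables hold estimated counts and TPM, per the file headers, and were summed per gene. Deposited TPM bounds describe estimation within 1 library, at a level the files do not give.

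Expected counts were rounded for TMM factors (edgeR 4.0.16) and DESeq2 1.42.0 size factors (R 4.3.3). Each ratio is log2 of TMM-scaled counts, with 0.5 added, in replicate 2 over those in replicate 1. No p-values were computed. A protein-coding gene is one with a protein-coding transcript in the index-based table, and all 21901 matched GENCODE M21. Coding sequences came from that release and were compared with edlib 1.3.9.post1. Scripts used Python 3.11.15 and were tested on simulated counts. Counting intervals, at 95%, and the limit of 3 counts cover counting error only.

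The members and lists were chosen with earlier results of these data known. Genes named are members at 1 TPM or more in both animals, the highest of each family, those next to the limit, those with the widest gap between tables, a fixed set of well-known members, and the highest or 2-fold different genes of each list. Cyp4a10, Cyp3a44, Cyp2a5, Cyp2a4, Cyp2c69, Cyp2c40, Cyp2g1, Cyp4x1 and Cyp2j13 were named after their values were seen. Fdx2 was not found by that symbol. The value of 1 sensor gene that this rule names is not reported here.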

Additional observations from a re-analysis of the deposited data

Results flagged for a closer look

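The rule for members leaves out 36 symbols of families 1 to 4, mostly pseudogenes and names that end in a letter, and 4 of them had at least 3 expected counts in both animals. Cyp3a41a, a protein-coding gene of the family 3 cluster on chromosome 5, had 60.8 counts in replicate 2 and 14.6 in replicate 1 (14.63). In each animal that was more counts than any family 3 member had. Cyp2ab1 had 7 counts in replicate 2 and 9 in replicate 1. The pseudogene Cyp2a21-ps had 14.8 counts in replicate 2 and 6.5 in replicate 1. The pseudogene Cyp4f41-ps had 4 counts in replicate 2 and 3 in replicate 1. There were no control samples, and these values were set against the limit of 3 counts.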

How the results depend on the processing

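No paired analysis was possible because there is 1 group. The count of 35 detected members became 15 with 1 TPM or more required and 38 with the index-based table. It ranged from 39 to 44 with 1 replicate left out. The members' share of P450 TPM, 2.83%, was 2.34% by expected counts and ranged from 2.59% to 3.08% with 1 replicate left out. The share of the 3 highest members, 76.3%, was 67.8% by expected counts and ranged from 74.2% to 78.5% with 1 replicate left out. The 0 members higher in replicate 2 became 2 at a mean of 10 counts and 3 with detection in either replicate as the only minimum; the 0 members lower stayed 0 under all 10 alternatives run. The median log2 ratio of 0.12 ranged from 0.00 to 0.22. The 10 members with 1 highest transcript were 6 of 6 at 5 TPM or more and 17 among detected members, counts that follow from how many genes were tested. The 0 members apart between tables stayed 0 under 7 alternatives, both replicates left out in turn included. Scaling to total counts moved the median of protein-coding genes from -0.03 to 0.07, and deposited TPM moved it to 0.08. For single genes, log2 ratios moved past their counting interval in 6 of 23 cases with deposited TPM and in none with DESeq2 size factors or index-based counts, though Cyp2d11 turned from 0.68 to -1.07 with the index-based counts. Mean TPM of 10 of 23 named genes moved by more than the SD with the index-based table. The added alternatives for subfamily sums were chosen after seeing the data. Depth limits what can be said of members near 3 counts, and most differences below 10 counts rest on a few reads.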
